A study of Mus musculus with 6 samples.

Results

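The genes described here were 43 genes of the lysosome and of its transcriptional control: 22 hydrolases, 3 soluble proteins of the lumen that are no hydrolases, 8 membrane proteins, 5 parts of the proton pump and 5 genes of the regulatory side (Tfeb, Tfe3, Mitf, Flcn and the autophagy receptor gene Sqstm1). They were taken by name from a list chosen with earlier results of these data known, so counts over it are description and no test. All 43 had a probe set of their own among the 19937 genes measured. Transcript levels came from 6 single-colour Affymetrix arrays, 3 of cells exposed for 24 h to CHIR99021, which blocks GSK3 and so lets β-catenin build up, and 3 of cells exposed as long to XAV939, which blocks tankyrase and so favours the loss of β-catenin. CHIR99021 was given at 3 µM, and XAV939 at 3 µM by the sample labels and 1 µM by the treatment protocol. All arrays were of the same mouse embryonic stem cell line, a V6.5 derivative whose Ctnnb1 gene carries a Biotin-3xFLAG tag and which expresses the ligase BirA (Ctnnb1-BioFLneo;BirA ESC), kept in serum with LIF on feeder cells from DR4 mice. Both treatments share this single line and its alleles, and no untreated arrays were analysed here, so no difference below is assigned to either compound. Nothing in the labels says that replicates were separate cultures, and p-values therefore measure only the spread between these arrays.

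Lysosomes are the acidic compartment in which cells break down proteins, lipids and sugars delivered by endocytosis and autophagy. Most of their hydrolases are tagged with mannose 6-phosphate in the Golgi and sorted to the organelle, where a proton-pumping V-ATPase keeps the lumen acidic. TFEB, TFE3 and MITF, the MiT/TFE family of basic helix-loop-helix leucine zipper factors, bind E-box-like elements (CLEAR elements) near many lysosomal genes. Their entry into the nucleus is restrained by phosphorylation through mTORC1, which is recruited by Rag GTPases with the help of folliculin (FLCN), and GSK3 is also known to phosphorylate TFEB. In mouse embryonic stem cells, exclusion of TFE3 from the nucleus through FLCN is known to be needed for exit from the pluripotent state. Transcript levels say nothing of where these proteins were in the cell.

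Levels are log2 expression values of 1 probe set per gene, each difference is the CHIR99021 mean minus the XAV939 mean on that log2 scale, given with its standard error (SE) from the limma fit, and a gene was called at an adjusted p under 0.05 (limma's two-sided moderated test, Benjamini-Hochberg over all 19937 genes). Of the 43 lysosome genes, 15 (34.9%) were called higher with CHIR99021, against 5.31% of all genes, and 4 (9.3%) were called lower, against 4.34% of all genes. Counting both directions, 19 (44.2%) were called, against 9.65% of all genes, and the other 24 did not pass. The cells were measured in bulk, so that more cells of a type and more RNA per cell cannot be told apart. Most of the differences were small: the median over the 43 genes was 0.17, that of all genes was 0.0066, and no member differed by a full log2 unit. The arrays of the treatments did not overlap for 23 members with higher values (14.1% of all genes) and 6 with lower values (11.0% of all genes). Axin2, a negative-feedback target of β-catenin used as a check of the treatments, was at 7.48, 7.41 and 7.54 with CHIR99021, against 5.46, 5.79 and 5.46 with XAV939 (1.91 ± 0.09, adjusted p = 5.43e-07). Arrays of the same treatment correlated at 0.997 to 0.999 across the genes measured, and arrays of different treatments at 0.994 to 0.995.

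**Figure D1:**
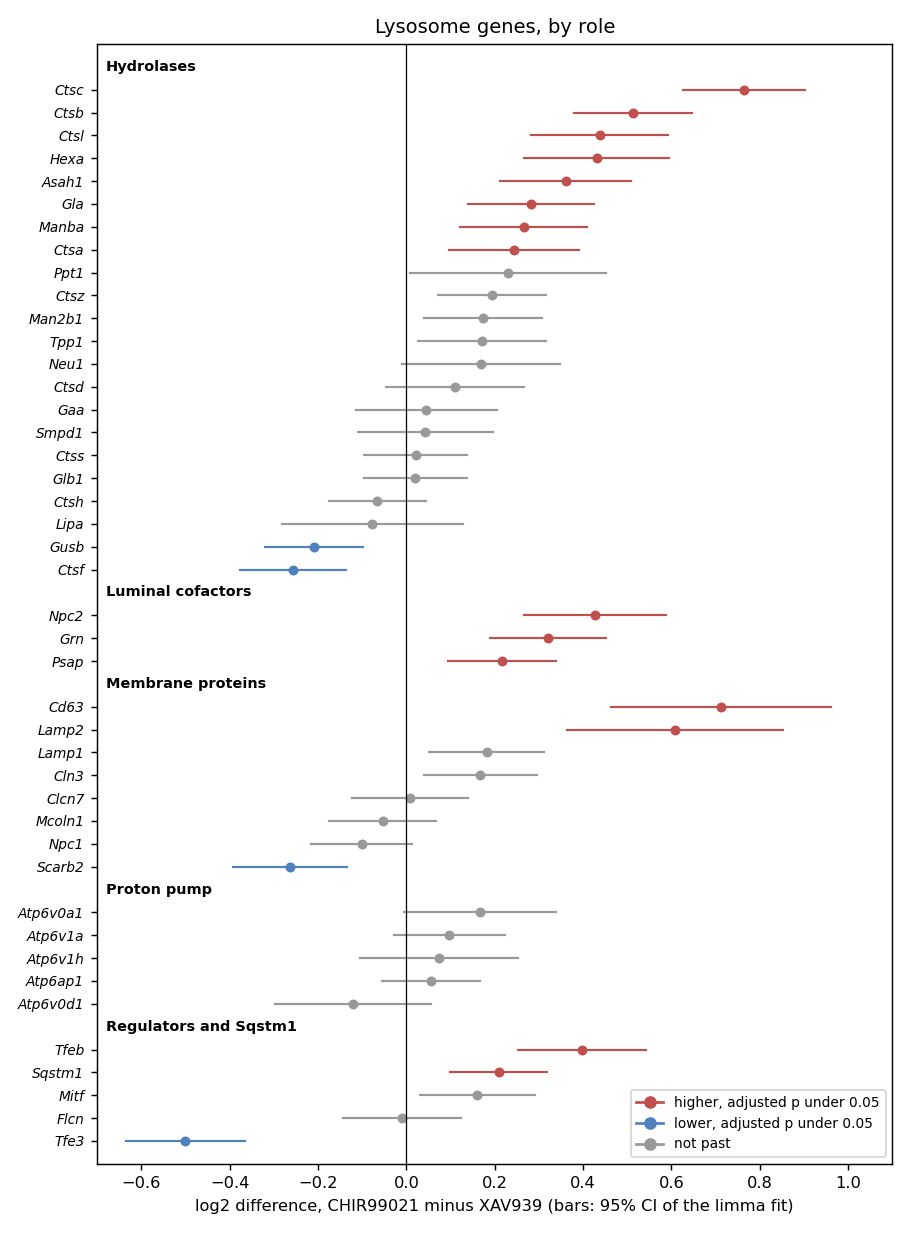
Log2 difference (x axis, CHIR99021 minus XAV939) of each of the 43 lysosome genes (rows, grouped by role), with points for the estimate and bars for its 95% confidence interval in the limma fit. Red genes were called higher, blue genes lower and grey genes did not pass. None of the 5 proton pump genes was called, against 9.65% of all genes, and Tfeb and Tfe3 stand on opposite sides of 0.

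Among the hydrolases, 8 of 22 rose (36.4%, against 5.31% of all genes), 2 fell (9.09%, against 4.34%) and 12 did not pass. Of the 7 cysteine cathepsin genes, Ctsc, Ctsb and Ctsl rose, Ctsf fell, and Ctsz, Ctss and Ctsh did not pass. Ctsc, encoding cathepsin C, a dipeptidyl peptidase that activates other proteases, was at 7.74, 7.95 and 7.84 with CHIR99021, against 7.08, 7.12 and 7.05 with XAV939. This is a 1.70-fold rise (0.76 ± 0.06 SE, adjusted p = 2.67e-05) and the largest of the 43 genes. Ctsb, encoding the abundant endopeptidase cathepsin B, was at 8.60, 8.61 and 8.78 with CHIR99021, against 8.15, 8.15 and 8.16 with XAV939. The XAV939 arrays were almost identical for this gene, and the rise was 1.43-fold (0.51 ± 0.06, adjusted p = 3.15e-04). Ctsl, encoding the endopeptidase cathepsin L, was at 9.95, 10.00 and 9.90 with CHIR99021, against 9.36, 9.56 and 9.62 with XAV939 (0.44 ± 0.07, adjusted p = 0.00231). All 3 CHIR99021 arrays lay above all 3 XAV939 arrays for each of these proteases.

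The other 5 hydrolases that rose act on lipids, glycans and peptides. Hexa, the α subunit of β-hexosaminidase, which degrades GM2 ganglioside, was at 8.38, 8.28 and 8.34 with CHIR99021, against 7.74, 8.02 and 7.95 with XAV939 (0.43 ± 0.07, adjusted p = 0.00381). Asah1, acid ceramidase, was at 9.88, 9.89 and 9.83 with CHIR99021, against 9.36, 9.58 and 9.58 with XAV939 (0.36 ± 0.07, adjusted p = 0.00587). For both genes XAV939 replicate 1 was the lowest array, and the groups did not overlap. Gla, α-galactosidase A, was at 8.30, 8.40 and 8.34 with CHIR99021, against 7.94, 8.14 and 8.12 with XAV939 (0.28 ± 0.06, adjusted p = 0.0192). Manba, β-mannosidase, was at 8.22, 8.22 and 8.04 with CHIR99021, against 7.85, 7.88 and 7.97 with XAV939 (0.27 ± 0.06, adjusted p = 0.0275). Neither gene's groups overlapped, although for Manba CHIR99021 replicate 3 lay close to XAV939 replicate 3. Ctsa, encoding the serine carboxypeptidase that protects β-galactosidase and neuraminidase, was at 8.26, 8.43 and 8.47 with CHIR99021, against 8.09, 8.14 and 8.21 with XAV939 (0.24 ± 0.07, adjusted p = 0.0435). The calls of these last genes depended on single arrays. That of Gla was lost without CHIR99021 replicate 2 (adjusted p = 0.0946) or 3 (0.0585), that of Manba when any of replicates 1 and 2 of either treatment was left out (0.0588 to 0.126) and on centring each array on its median (0.0506) or repeating the quantile normalisation (0.0544), and that of Ctsa without any array other than CHIR99021 replicate 1 (0.0616 to 0.164) and on centring (0.0622).

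The hydrolases that fell were Ctsf and Gusb. Ctsf, encoding the cysteine protease cathepsin F, was at 6.43, 6.46 and 6.47 with CHIR99021, against 6.76, 6.73 and 6.64 with XAV939 (-0.26 ± 0.05, adjusted p = 0.0129). Gusb, β-glucuronidase, which acts on glycosaminoglycans, was at 6.97, 7.0 and 6.97 with CHIR99021, against 7.16, 7.18 and 7.22 with XAV939 (-0.21 ± 0.05, adjusted p = 0.0235). All CHIR99021 arrays lay below all XAV939 arrays for both genes. The call of Ctsf was lost when CHIR99021 replicate 1, CHIR99021 replicate 2 or XAV939 replicate 2 was left out (0.0534 to 0.0584), and that of Gusb without any array other than XAV939 replicate 1 (0.0629 to 0.0921). Without CHIR99021 replicate 2, 5 hydrolases rose and 0 fell, with both Ctsf and Gusb still below 0 (-0.26 and -0.22). The counts over all genes also dropped in that fit, from 1058 to 726 higher and from 866 to 528 lower.

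The 12 hydrolases that did not pass had differences between -0.08 (Lipa, lysosomal acid lipase) and 0.23 (Ppt1, palmitoyl-protein thioesterase). Closest to the threshold was Ctsz, the carboxypeptidase cathepsin Z, at 9.98, 10.05 and 10.05 with CHIR99021, against 9.78, 9.82 and 9.90 with XAV939 (0.19 ± 0.06, adjusted p = 0.0534). Its groups did not overlap. Ctsd, the main aspartic protease of lysosomes, was at 10.23, 10.16 and 10.42 with CHIR99021, against 10.13, 10.14 and 10.21 with XAV939, so that the groups overlapped (0.11 ± 0.07, adjusted p = 0.457). Man2b1 (acid α-mannosidase), Tpp1 (a tripeptidyl peptidase) and Neu1 (neuraminidase) had estimates of 0.17 each with adjusted p between 0.114 and 0.274. Glb1 (β-galactosidase), Gaa (acid α-glucosidase, which degrades glycogen) and Smpd1 (acid sphingomyelinase) had estimates of 0.02 to 0.05, and the upper end of their 95% confidence intervals was at most 0.20. Ctss and Ctsh, proteases best known from immune cells and lung, had mean levels of 5.11 and 4.37 with CHIR99021, against 5.09 and 4.44 with XAV939, under the probe set median of an array (5.67 to 5.71), and no detection call was made.

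All 3 soluble lumen proteins that are no hydrolases were called higher. Npc2, which passes cholesterol to the membrane transporter NPC1, was at 8.88, 8.84 and 9.08 with CHIR99021, against 8.52, 8.42 and 8.57 with XAV939 (0.43 ± 0.07, adjusted p = 0.00337). Grn, encoding progranulin, was at 9.27, 9.30 and 9.40 with CHIR99021, against 9.04, 9.04 and 8.92 with XAV939 (0.32 ± 0.06, adjusted p = 0.00568). Psap, the precursor of the saposins that activate sphingolipid hydrolases, was at 10.78, 10.81 and 10.90 with CHIR99021, against 10.57, 10.62 and 10.65 with XAV939 (0.22 ± 0.05, adjusted p = 0.0319). The groups of none of the 3 overlapped, but the call of Psap was lost when any 1 array was left out (0.0577 to 0.102).

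Genes of membrane proteins were called in both directions: 2 of 8 rose (25%, against 5.31% of all genes), 1 fell (12.5%, against 4.34%) and 5 did not pass. Cd63, a tetraspanin of late endosomes, lysosomes and exosomes, was at 7.53, 7.31 and 7.41 with CHIR99021, against 6.42, 6.76 and 6.93 with XAV939. Even the highest XAV939 array lay below the lowest CHIR99021 array, and the rise was 1.64-fold (0.71 ± 0.11, adjusted p = 0.00217). Lamp2, a heavily glycosylated protein of the lysosomal membrane with a role in autophagy, was at 7.86, 7.89 and 8.09 with CHIR99021, against 7.06, 7.44 and 7.51 with XAV939 (0.61 ± 0.11, 1.52-fold, adjusted p = 0.00507), a call lost when every probe set was tested in place of 1 per gene (0.0567). Its relative Lamp1 was at 10.81, 10.84 and 10.96 with CHIR99021, against 10.69, 10.64 and 10.73 with XAV939, a difference of 0.18 ± 0.06 that did not pass (adjusted p = 0.0873). The difference between Lamp1 and Lamp2 was not tested.

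Scarb2, also known as LIMP-2, the receptor that carries β-glucocerebrosidase to lysosomes, went the other way, at 7.87, 7.86 and 7.94 with CHIR99021, against 8.06, 8.19 and 8.21 with XAV939 (-0.26 ± 0.06, adjusted p = 0.0162). Its groups did not overlap, and the call was lost when any array but CHIR99021 replicate 3 and XAV939 replicate 1 was left out (0.0645 to 0.0797). Npc1, the cholesterol transporter that receives its cargo from NPC2, was at 8.05, 8.07 and 8.09 with CHIR99021, against 8.13, 8.16 and 8.22 with XAV939 (-0.10 ± 0.05, adjusted p = 0.314). Cln3, a membrane protein mutated in juvenile Batten disease, had an estimate of 0.17 ± 0.06 (adjusted p = 0.112). The calcium channel gene Mcoln1 and the chloride-proton exchanger gene Clcn7 had estimates of -0.05 ± 0.05 and 0.0078 ± 0.059, with adjusted p of 0.688 and 0.972.

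**Figure D2:**
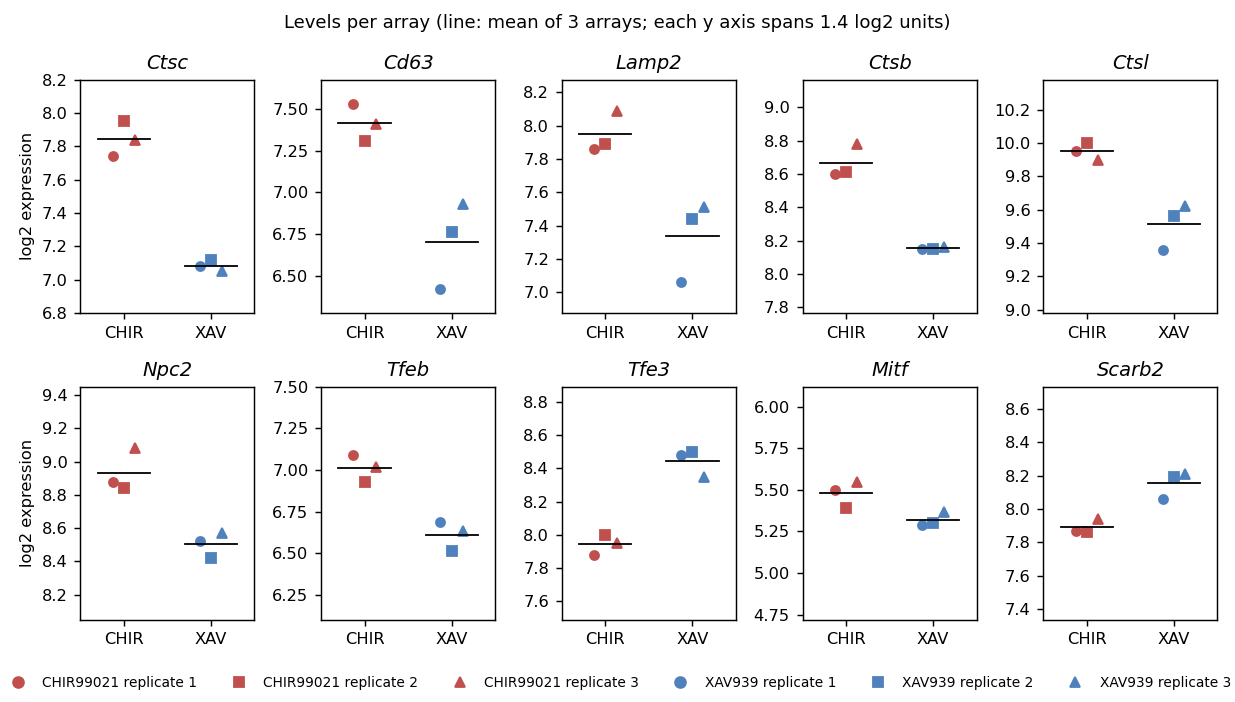
Log2 expression (y axis, each spanning 1.4 log2 units) of 10 lysosome genes on each array, with CHIR99021 (CHIR) left of XAV939 (XAV), a marker shape per replicate number and a line at the mean of 3 arrays. In each panel the treatments do not overlap; Tfe3 and Scarb2 are lower with CHIR99021, and Mitf did not pass the test.

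None of the 5 proton pump genes was called by limma, against 9.65% of all genes. With so few genes, this count cannot be set apart from that share. None of the 5 had an unadjusted p under 0.05 in either direction. Atp6v0a1, a subunit of the membrane sector, was at 8.07, 8.10 and 7.91 with CHIR99021, against 7.71, 7.93 and 7.94 with XAV939 (0.17 ± 0.08, adjusted p = 0.264). Atp6v1a, the catalytic subunit that hydrolyses ATP, was at 9.84, 9.89 and 9.87 with CHIR99021, against 9.70, 9.77 and 9.85 with XAV939 (0.10 ± 0.06, adjusted p = 0.402). The groups of both genes overlapped. Across the 5 genes the estimates ran from -0.12 (Atp6v0d1) to 0.17, and the 95% confidence intervals spanned -0.30 to 0.34. Of 15 further pump genes measured, 0 were called in either direction by limma, against 9.65% of all genes. At an unadjusted p under 0.05, 2 were higher and 1 was lower, and the median difference of the 15 genes was 0.024. The share of all genes at that unadjusted level was not counted. Unadjusted counts here and below therefore cannot be set against it. The accessory subunit gene Atp6ap2 had the largest estimate of these (0.27 ± 0.08, adjusted p = 0.0766). The 2 probe sets of Atp6v1g1, a subunit of the stalk, differed: the one used had a difference of 0.12 ± 0.07, and a weaker one, at 7.56 with CHIR99021 and 7.13 with XAV939, had 0.43 ± 0.08 and passed when all probe sets were tested (adjusted p = 0.0417).

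The MiT/TFE genes differed in direction. Tfeb was at 7.09, 6.93 and 7.02 with CHIR99021, against 6.69, 6.51 and 6.63 with XAV939, a 1.32-fold rise (0.40 ± 0.07, adjusted p = 0.0028). Tfe3 was at 7.88, 8.0 and 7.95 with CHIR99021, against 8.48, 8.50 and 8.35 with XAV939, and was 1.41-fold lower (-0.50 ± 0.06, adjusted p = 3.93e-04). Neither gene's groups overlapped, and both calls held when any 1 array was left out (adjusted p up to 0.0176 for Tfeb and 0.00332 for Tfe3). Mitf, the family member known for its part in pigment cells, was at 5.50, 5.39 and 5.55 with CHIR99021, against 5.29, 5.30 and 5.37 with XAV939. These levels were under the array medians, the groups did not overlap, and the difference did not pass (0.16 ± 0.06, adjusted p = 0.134). A second probe set of Mitf was at 3.31 with CHIR99021 and 3.22 with XAV939 (0.09 ± 0.06). The remaining family member, Tfec, had a mean level of 4.53 with CHIR99021 and 4.62 with XAV939 (-0.09 ± 0.07, adjusted p = 0.563).

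Flcn, whose product lets mTORC1 phosphorylate TFEB and TFE3, was at 8.18, 8.30 and 8.16 with CHIR99021, against 8.29, 8.18 and 8.20 with XAV939. The groups overlapped (-0.0098 ± 0.060, adjusted p = 0.963), and the 95% confidence interval ran from -0.14 to 0.12. Sqstm1, encoding p62, which links ubiquitin-tagged cargo to autophagosomes and is itself degraded in lysosomes, was at 9.70, 9.74 and 9.72 with CHIR99021, against 9.48, 9.53 and 9.51 with XAV939 (0.21 ± 0.05, adjusted p = 0.0229). The groups did not overlap and the arrays of each treatment lay close together, but the call was lost without any array other than XAV939 replicate 1 (0.057 to 0.106).

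Genes that act upstream of the MiT/TFE factors or feed back on them were called in 3 of 24 cases (12.5%, against 9.65% of all genes), 1 higher and 2 lower, a share near that of all genes. The higher one was Rragd, a Rag GTPase gene that is itself a known target of these factors. It was at 8.38, 8.36 and 8.40 with CHIR99021, against 7.50, 7.61 and 7.58 with XAV939, a 1.76-fold rise (0.82 ± 0.05, adjusted p = 6.02e-06) that exceeded that of every one of the 43 genes. RagD forms dimers with RagA or RagB and has RagC as its paralogue. Rraga and Rragc had differences of 0.02 ± 0.05 and -0.0012 ± 0.078. Rragb had a mean level of 7.77 with CHIR99021 and 8.08 with XAV939, without overlap of the groups, and did not pass (-0.31 ± 0.10, adjusted p = 0.0958). The lower ones were Fnip2, a binding partner of folliculin (-0.31 ± 0.05, adjusted p = 0.00386), and Lamtor3, a part of the Ragulator scaffold (-0.25 ± 0.06, adjusted p = 0.0309, lost without any array other than XAV939 replicate 1 at 0.0522 to 0.122, and 0.0664 for the mean of its probe sets). The kinase gene Mtor had a difference of -0.01 ± 0.06 (adjusted p = 0.947), and the GSK3 genes Gsk3a and Gsk3b had differences of 3.2e-04 ± 0.078 and 0.12 ± 0.08 (adjusted p = 0.999 and 0.429).

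Of 36 further lysosomal genes outside the 43, 4 were higher (11.1%, against 5.31% of all genes) and 0 lower by limma (1 lower at an unadjusted p under 0.05). Laptm5, a lysosomal membrane protein best known from blood cells, was at 8.21, 8.39 and 8.44 with CHIR99021, against 7.75, 7.75 and 7.68 with XAV939 (0.62 ± 0.07, adjusted p = 1.88e-04). Pla2g15, lysosomal phospholipase A2, rose by 0.37 ± 0.06 (adjusted p = 0.00146), Lgmn, the asparaginyl endopeptidase legumain, by 0.26 ± 0.06 (0.0178) and Sidt2 by 0.33 ± 0.09 (0.0412). The call of Lgmn was lost when CHIR99021 replicate 2, CHIR99021 replicate 3 or XAV939 replicate 3 was left out (0.0632 to 0.0745), and that of Sidt2 when replicate 2 or 3 of either treatment was (0.123 to 0.155).

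Of the sorting and trafficking genes, 1 of 19 was higher (5.26%, against 5.31% of all genes) and 2 were lower (10.5%, against 4.34%). Sort1, the sorting receptor sortilin, which carries prosaposin and other cargo from the Golgi to lysosomes, was at 7.04, 7.21 and 7.17 with CHIR99021, against 7.73, 7.74 and 7.84 with XAV939 (-0.63 ± 0.06, adjusted p = 1.07e-04). Gnptg, a subunit of the enzyme that starts the mannose 6-phosphate tag, rose by 0.29 ± 0.06 (adjusted p = 0.00637), while Gnptab, which encodes its catalytic part, had a difference of -0.20 ± 0.06 that did not pass (0.0684). Rab27a, a GTPase of secretory lysosomes, was lower (-0.38 ± 0.08, adjusted p = 0.0129, lost when CHIR99021 replicate 2, XAV939 replicate 2 or XAV939 replicate 3 was left out, at 0.0516 to 0.0668).

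Cd63 belongs to the tetraspanins, of which 5 of 17 others were called higher (29.4%, against 5.31% of all genes) and 2 lower (11.8%, against 4.34%). Tspan14 rose by 0.40 ± 0.07 (adjusted p = 0.00414) and Cd9, found on the cell surface and on exosomes, by 0.25 ± 0.05 (0.012, and 0.0683 without CHIR99021 replicate 2). Tspan5 and Tspan4 were lower (-0.46 ± 0.05 and -0.30 ± 0.05, adjusted p = 3.50e-04 and 0.00417). Of the autophagy genes, 1 of 24 was higher (4.17%, against 5.31% of all genes) and 0 lower by limma (1 lower at an unadjusted p under 0.05). The higher gene was Ulk1, the kinase that starts autophagosome formation (0.29 ± 0.07, adjusted p = 0.0203), a call lost when replicate 2 or 3 of either treatment was left out (0.0567 to 0.083). The 2 probe sets of Map1lc3b, the gene of the autophagosome marker LC3B, disagreed in size, with 0.17 ± 0.07 for the one used and 1.26 ± 0.36 for a weaker one, and neither passed. Over these 6 lists together, 12 of 135 genes were higher (8.89%, against 5.31% of all genes) and 6 lower (4.44%, against 4.34%). Without CHIR99021 replicate 2, 7 of them were higher, and the count of higher genes over all genes also dropped, from 1058 to 726.

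XAV939 replicate 1 held the lowest value of the 6 arrays for 22 of the 43 lysosome genes (51.2%), whereas it did so for 21.5% of all genes. Its median deviation from a gene's mean was -0.12 over the 43 genes and 0.002 over all genes. Without this array the differences were 0.57 for Cd63 (adjusted p = 0.00155), 0.47 for Lamp2 (0.0036), 0.36 for Ctsl (0.0027), 0.35 for Hexa (0.00428) and 0.29 for Asah1 (0.00653), and that of Ppt1, which had not passed, was 0.096. The limma calls of Ctsa (adjusted p = 0.0894), Manba (0.0588) and Psap (0.0584) were lost without it. Members called higher then numbered 12, against 15 with all arrays, and 4 were lower in both fits. Over all genes the counts went up, from 1058 to 1130 higher and from 866 to 1117 lower. CHIR99021 replicate 3 held the highest value for 18 members (41.9%, against 24.7% of all genes), and CHIR99021 replicate 2 for 15 (34.9%, against 12.8%). Without XAV939 replicate 1 and CHIR99021 replicate 3, 14 members were higher and 4 lower, and over all genes 1080 were higher and 1245 lower.

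**Figure D3:**
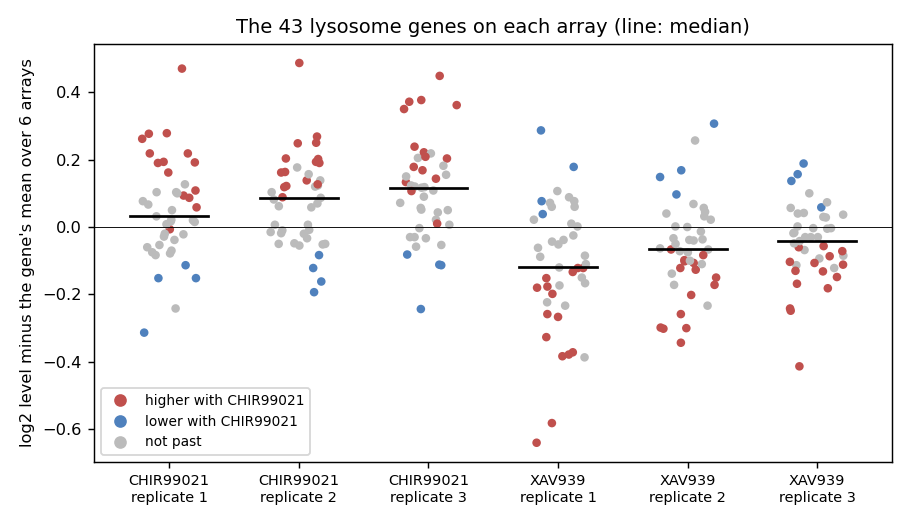
Log2 level of each of the 43 lysosome genes minus that gene's mean over the 6 arrays (y axis), shown for each array (x axis), with a line at the median of the 43 genes and colours for the call. The medians are 0.03, 0.08 and 0.12 on the CHIR99021 arrays and -0.12, -0.07 and -0.04 on the XAV939 arrays.

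Of 19 marker genes of fibroblasts such as the feeder cells, 6 were also higher by limma (31.6%, against 5.31% of all genes). By limma 0 were lower, against 4.34% of all genes, with 1 lower at an unadjusted p under 0.05. The summed level of the 19 genes on the linear scale was 3246 to 3496 on the CHIR99021 arrays, against 2407 to 2509 on the XAV939 arrays. Such a sum is weighted to the genes with the highest levels. These were the contractile genes Tagln (mean log2 level 10.23 with CHIR99021, 9.56 with XAV939) and Acta2 (9.65 and 9.29). Col1a1, a chain of fibrillar collagen, rose by 1.05 ± 0.05 (adjusted p = 1.56e-06), Tagln, an actin-binding protein of smooth muscle and fibroblasts, by 0.67 ± 0.07, Pdgfrb, a growth factor receptor of mesenchymal cells, by 0.59 ± 0.05, the collagen genes Col1a2 and Col5a1 by 0.40 ± 0.06 and 0.38 ± 0.07, and Acta2, smooth muscle actin, by 0.35 ± 0.05. Of the 13 that did not pass, Col3a1, Col6a1, Thy1 and Twist1 were above the array medians, with mean levels of 6.40, 6.43, 6.37 and 6.36 with CHIR99021, against 6.31, 6.43, 6.44 and 6.55 with XAV939. The other 9 were below them, among them Dcn at 4.44 with CHIR99021 and 4.41 with XAV939. The part of feeder cells in the lysosomal differences was not tested. All 12 macrophage markers were under the array medians and 0 were called by limma, against 9.65% of all genes (1 was higher at an unadjusted p under 0.05). Their summed linear level was 341 to 348 on the CHIR99021 arrays, against 336 to 341 on the XAV939 arrays. The stem cell genes Pou5f1 and Sox2 were at 11.33 and 10.98 with CHIR99021, against 11.51 and 10.98 with XAV939, and neither was called (adjusted p = 0.115 and 0.976). Nanog, Esrrb and Zfp42, also markers of the stem cell state, were at 11.03, 9.87 and 9.19 with CHIR99021, against 10.54, 9.27 and 8.93 with XAV939, and all of them were called higher.

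Promoter windows of 300 bases, 250 before to 50 after an annotated start, were searched because CLEAR elements tend to lie close to the start of lysosomal genes. RefSeq sequences (GRCm38.p6) were at hand for 38 of the 43 genes, in 47 windows, with none used for Ctsb, Ctsh, Asah1, Npc1 and Atp6v1h. The E-box core CACGTG was found in 13 of the 47 windows (27.7%), against 7.15% of all 32851 windows and 8.24% of the 19176 windows of genes on the arrays. The longer form TCACGTG, which contains the core, was found in 11 windows (23.4%, against 3.77% of all windows), the M-box TCATGTG in 8 (17.0%, against 3.77%) and the TCF/LEF motif CTTTGAT in 3 (6.38%, against 3.73%), each on either strand. Among windows of genes on the arrays, the shares of these 3 motifs were 4.65%, 2.82% and 3.18%. The windows of the genes called higher or lower that hold the core are shown first, followed by Lamp1 and Mcoln1 as examples of the 5 genes that hold it more than once and were not called (the others are Clcn7, Cln3 and Ctsd). The capitals mark the core, with up to 10 bases on each side and the distance of its first base from the start.
Ctsa, window chr2:164833523-164833822, plus strand, 12 bases before the start: agcaaactgtCACGTGatgcagatgc
Ctsa, window chr2:164833523-164833822, plus strand, 5 bases after the start: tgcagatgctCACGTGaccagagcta
Gla, window chrX:134600956-134601255, minus strand, 227 bases before the start: agcgattgatCACGTGagcatctacg
Gla, window chrX:134600956-134601255, minus strand, 194 bases before the start: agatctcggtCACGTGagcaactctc
Ctsl, window chr13:64370471-64370770, minus strand, 236 bases before the start: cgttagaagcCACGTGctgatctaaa
Ctsf, window chr19:4854915-4855214, plus strand, 79 bases before the start: ccccgtggtcCACGTGcctcgcgtaa
Lamp1, window chr8:13158911-13159210, plus strand, 61 bases before the start: ggcaagatatCACGTGgtccagcgcc
Lamp1, window chr8:13158911-13159210, plus strand, 45 bases before the start: gtccagcgccCACGTGatgccgactg
Lamp1, window chr8:13158911-13159210, plus strand, 28 bases before the start: tgccgactggCACGTGaccacatcac
Lamp1, window chr8:13158911-13159210, plus strand, 15 bases before the start: gtgaccacatCACGTGcggaacggag
Mcoln1, window chr8:3500269-3500568, plus strand, 71 bases before the start: tcgcgcttgtCACGTGttcagttcag
Mcoln1, window chr8:3500269-3500568, plus strand, 45 bases before the start: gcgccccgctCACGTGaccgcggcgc
The core sits within TCACGTG on at least one strand at every printed site of Ctsa, Gla, Lamp1 and Mcoln1 and at none of Ctsl and Ctsf.

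Genes with and without the core were both called in part, and the difference was not tested. Of the 13 genes with it, 3 were higher, 1 lower and 9 not past, and of the 25 genes without it, 10 were higher, 3 lower and 12 not past. The genes with it include Lamp1 with 4 cores and a difference of 0.18 ± 0.06, and both Mcoln1 and Clcn7, whose estimates were close to 0. The TCF/LEF motif was found in windows of Lamp2 and Npc2, which rose, and of Mitf, which did not pass. A match is a run of letters and not a measured site. Below are the windows of the members with the largest differences for which a window was at hand, Ctsc, Cd63 and Lamp2. A lone capital marks the annotated start, and a run of capitals marks a match to one of the motifs searched. Those of Ctsc and Cd63 hold no match, and that of Lamp2 holds the TCF/LEF motif, read on the other strand, 182 bases before the start.
Ctsc, chr7:88277835-88278134, plus strand: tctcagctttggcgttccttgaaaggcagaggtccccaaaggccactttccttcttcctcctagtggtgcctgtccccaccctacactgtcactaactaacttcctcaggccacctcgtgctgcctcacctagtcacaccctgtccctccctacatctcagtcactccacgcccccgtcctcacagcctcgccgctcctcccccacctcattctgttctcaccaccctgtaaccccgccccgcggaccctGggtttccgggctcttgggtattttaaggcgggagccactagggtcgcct
Cd63, chr10:128909095-128909394, plus strand: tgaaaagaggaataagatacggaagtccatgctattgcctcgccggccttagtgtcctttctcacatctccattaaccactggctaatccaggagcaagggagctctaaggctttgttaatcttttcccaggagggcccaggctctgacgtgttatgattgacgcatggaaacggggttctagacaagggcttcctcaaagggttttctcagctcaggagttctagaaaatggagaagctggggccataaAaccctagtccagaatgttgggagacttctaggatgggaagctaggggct
Lamp2, chrX:38456411-38456710, minus strand: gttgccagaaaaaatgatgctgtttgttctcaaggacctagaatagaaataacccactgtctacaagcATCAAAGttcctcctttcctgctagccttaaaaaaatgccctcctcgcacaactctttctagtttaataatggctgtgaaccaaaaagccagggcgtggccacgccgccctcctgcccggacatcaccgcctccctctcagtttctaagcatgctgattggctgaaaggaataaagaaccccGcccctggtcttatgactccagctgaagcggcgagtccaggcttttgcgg

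**Figure D4:**
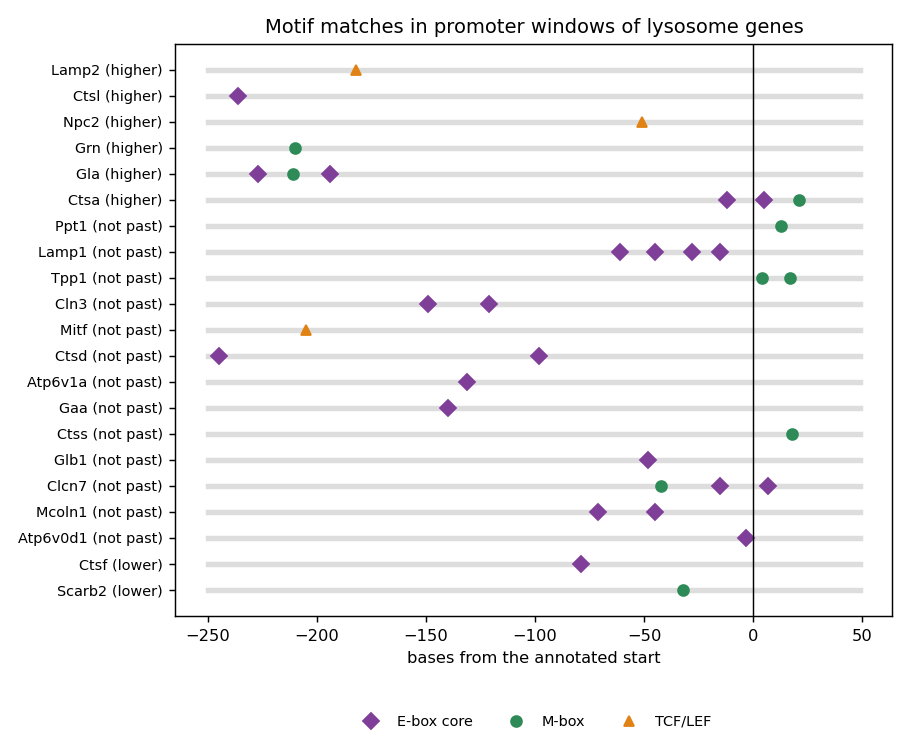
Positions (x axis, bases from the annotated start) of matches to the E-box core, the M-box and the TCF/LEF motif in promoter windows of the 21 lysosome genes with a match, ordered from the largest positive to the largest negative difference (y axis, call in brackets). For Clcn7 the M-box lies in a window of another start. Of the 13 genes with the core 9 did not pass, and of the 25 genes without it 12 did not pass, a difference that was not tested.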

How the data were processed

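RNA of 6 samples titled CHIR or XAV (3 each) was hybridised to Affymetrix arrays after whole-transcript labelling, per the labels' protocols. Per the submitters' processing notes, the authors used RMA, which gives the deposited log2 values of probe sets. No version of it is given in the sources used here, nor a genome build. That method corrects background, quantile-normalises the arrays and summarises probes, and it tends to compress differences of weak genes. Array number limits the precision. Of 34760 probe sets, 21640 name 1 gene in the platform annotation, and each gene was represented by its probe set with the highest mean (19937 genes). limma 3.58.1 (lmFit, eBayes, R 4.3.3) compared the treatments over all genes without a filter, with Benjamini-Hochberg adjustment, and was tested on simulated data. With 3 arrays on each side, exact permutation reaches at best p = 0.1, and it was not used. Levels of different genes were not compared. The members, lists, motifs and marker genes were chosen with earlier results of these data known. All members are accounted for. Values per array are given for those past the threshold, for Cd63, Ctsb, the MiT/TFE genes, Sqstm1 and Flcn, and for the 2 pump genes with the smallest p; Ctsd, Ctsz, Lamp1 and Npc1, and the uncalled genes named from other lists, were added after their values were seen. Up to 4 called genes of each other pathway list are named, and all 6 called fibroblast markers. Alternatives were other scalings, filters on low levels, probe set choices, variance priors, array weights, a replicate block, a threshold of 0.01 and leaving out arrays. Plots used matplotlib 3.10.9.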

Additional observations from a re-analysis of the deposited data

How the results depend on the processing

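All 19 called members kept their direction in every alternative run for them (up to 18 each). For most alternatives this was fixed in advance and is no support. The groups of these genes did not overlap, so leaving out arrays could not reverse the direction. Level filters, variance priors, the replicate block and the stricter threshold leave the estimate itself unchanged. The call can change, and 11 of the 19 were called whichever single array was left out: Ctsb, Ctsc, Ctsl, Hexa, Asah1, Npc2, Grn, Cd63, Lamp2, Tfeb and Tfe3. Members called higher numbered 15, between 10 and 12 with 1 array left out, 12 with arrays centred on their median and 9 when all probe sets were tested, where Lamp2 was among those lost (adjusted p = 0.0567). Members called lower numbered 4, between 1 and 4 with 1 array left out (1 without CHIR99021 replicate 1 or 2 or XAV939 replicate 2, 2 without XAV939 replicate 3), 1 when all probe sets were tested and 1 at a threshold of 0.01. Of the other pathway genes, 12 were called higher (7 to 13 with 1 array left out, 6 when all probe sets were tested, 19 with array weights, 5 at a threshold of 0.01) and 6 lower (4 to 9 with 1 array left out, 11 with array weights). Feeder fibroblast markers called higher numbered 6 in every alternative. With the replicate block, 12 members were higher and 3 lower, without Gusb, Manba, Psap and Sqstm1. The labels do not say whether same-numbered arrays were handled together. Deviations of same-numbered arrays from the group means correlated at -0.096, 0.060 and -0.14, which cannot decide this with 3 arrays on each side. Over all genes, 1058 were higher and 866 lower; these counts were 584 and 460 when all probe sets were tested (more features tested), 621 and 497 at a threshold of 0.01 and 1448 and 1409 with array weights, and the lower genes numbered 573 without CHIR99021 replicate 1 and 528 without CHIR99021 replicate 2.

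Uncalled members with estimates near 0 changed sign. Ctss was at -2.5e-04 with array weights, -0.022 without CHIR99021 replicate 3 and XAV939 replicate 1 (an alternative chosen after seeing the data) and -0.0080 to 0.041 with 1 array left out. Glb1 was at -0.0085 after renewed quantile normalisation and -0.011 to 0.036 with 1 array left out. Clcn7 was at -0.0032 after centring, -0.0088 after quantile normalisation, -0.0042 without both arrays and -0.036 to 0.040 with 1 left out. Flcn was at 0.037 with array weights, 0.053 without both arrays and -0.053 to 0.024 with 1 left out. Smpd1 was at -0.024 without both arrays and -0.024 to 0.092 with 1 left out. With 1 array left out, Gaa ran from -0.0011 to 0.11, Lipa from -0.18 to 0.030 (-0.20 without both arrays) and Atp6v1h from -0.019 to 0.12. The causes of these changes were not tested.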
